A study of Mus musculus with 19 samples.

Results

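The genes described here encode the respiratory chain subunits that the nucleus supplies, that is, the structural proteins of complexes I to V of the inner mitochondrial membrane. A row of the deposited table of normalized counts was taken as a member when its gene was protein-coding and its symbol began with Ndufa, Ndufb, Ndufc, Ndufs or Ndufv (without the Ndufaf assembly factors), with Uqcr, with Cox4 to Cox8 or with Atp5, or was Sdha, Sdhb, Sdhc, Sdhd or Cyc1, and Cox7a1 and Cox8b were left out. The rule used no measured value. It found 84 of 46078 genes, of which 38 were assigned by symbol to complex I, 4 to complex II, 9 to complex III, 16 to complex IV and 17 to complex V. Ndufa4, whose protein is known as a complex IV subunit, was kept with complex I because of its name. Symbols are those of GENCODE vM21, so that the alpha and beta subunits of ATP synthase appear as Atp5a1 and Atp5b.

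Values came from RNA-seq of 19 mouse samples, and the study asked what a mutant p53 in stromal fibroblasts does to mammary tumor development. MG-WT was 3 mammary glands of wild type mice, which the study describes as age-matched. MG-N was 4 glands of MMTV-neu mice, in which the mammary tumor virus promoter drives neu (Erbb2) in mammary epithelium. Replicate 1 of MG-N carried MMTV-neu and Fsp-Cre, and replicates 2, 3 and 4 carried MMTV-neu and the conditional allele p53wm-R172H/+ without Cre, so that no MG-N gland carried both Cre and the conditional allele. MG-NP was 4 glands of MMTV-neu;p53wm-R172H/+;Fsp-Cre mice, in which Cre expressed from the Fsp promoter in fibroblasts converts the wild type p53 allele into one for p53 R172H. T-N was 4 tumors of MMTV-neu;Fsp-Cre mice, and T-NP was 4 tumors with the genotype of MG-NP. T-N therefore shared the neu transgene and Cre with T-NP and MG-N replicate 1 and lacked the conditional allele, which 3 of the 4 MG-N glands carried. By the study's account the MG-N and MG-NP glands came from tumor-bearing mice and held no malignant lesion. Its MMTV-neu cohorts were of mixed FVB, C57 and BALB/c background, and the strain of the wild type mice was not given. T-NP replicates 1 and 2 share a number in their library names, which may be that of an animal, though the labels do not say so. Ages were not given in the labels. The labels do not say that the replicates within a group came from separate animals, so p-values measure the spread between these samples.

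Electrons from NADH enter the respiratory chain at complex I and those from succinate at complex II. They pass through ubiquinone, complex III, cytochrome c and complex IV to oxygen, and complex V uses the proton gradient that results to make ATP. Skeletal muscle and brown fat are rich in mitochondria, white fat cells and secretory epithelium hold fewer, and a few complex IV subunits have separate isoforms for muscle and brown fat.

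The 16 libraries other than MG-WT held 20899152 to 27262440 recovered reads and those of MG-WT held 54677315 to 62645459, which is above every other library. The 9 white adipocyte genes took 1.21 to 1.70% of all reads in the MG-N glands and 0.481 to 1.12% in the MG-NP glands, against 0.0142 to 0.0204% in MG-WT, 0.00587 to 0.0333% in T-N and 0.0110 to 0.0181% in T-NP. Luminal epithelial genes took 0.480 to 0.527% in MG-WT and 0.0365 to 0.136% over MG-N and MG-NP. The 20 skeletal muscle genes took 2.28, 11, 0.0726 and 6.28% of reads in MG-NP replicates 1 to 4, and at most 0.142% in any library of the other groups. Ucp1, the uncoupling protein that defines brown fat, was 1967, 2.85, 479.8 and 56926 normalized counts in the same 4 glands, against 24.2, 783, 86.4 and 813 in MG-N. Bulk RNA cannot tell fewer cells of a type from less RNA per cell. The part of these tissue differences in the results on the members was not tested except where a value is given.

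Of the 84 members, 82 reached 10 normalized counts in 3 or more libraries. Cox7b2 and Cox8c, isoforms known from testis, were at 0 in every gland library and reached at most 3.36 and 1.14 normalized counts in a tumor. All members together took 0.87, 0.832, 0.939 and 0.942% of reads in the MG-N glands, 0.322, 0.278 and 0.331% in MG-WT, 0.866, 1.21, 0.788 and 1.92% in MG-NP, 0.838, 1.07, 0.949 and 0.962% in T-N and 0.942, 0.998, 0.876 and 0.882% in T-NP. MG-WT was below every other library, and MG-NP replicates 2 and 4 were above every other library. On the scale of mean normalized count per kilobase of the principal transcript in MG-N, the highest level was that of Atp5b at 16238, followed by Cox4i1 at 11389.5 and Atp5a1 at 9164. Atp5b and Atp5a1 encode the catalytic beta and the alpha subunit of ATP synthase, and Cox4i1 is the widely expressed form of a large regulatory subunit of complex IV. Atp5b was the highest on this scale in each of the 5 groups. Cox4i1 and Atp5a1 came next in MG-NP, T-N and T-NP too, whereas in MG-WT Cox8a stood above Cox4i1.

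**Figure D1:**
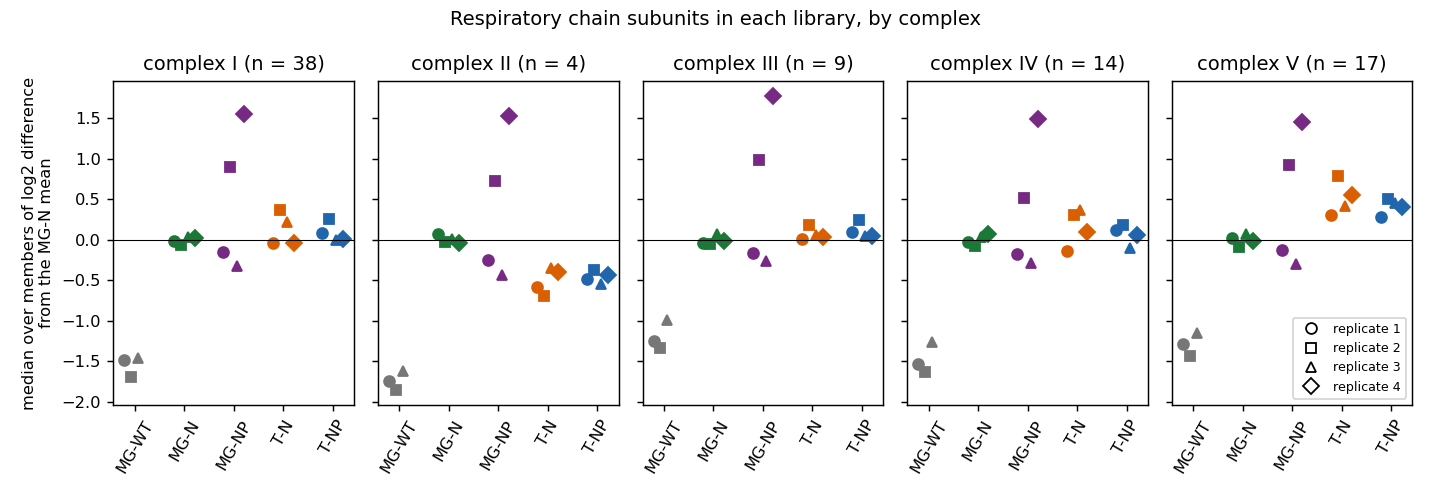
Median over the members of each complex of the log2 difference from the MG-N mean (vertical axis, log2 normalized count + 1), 1 point per library, with groups on the horizontal axis and the marker shape giving the replicate number. Every MG-WT point lies between -1.86 and -0.99, MG-NP replicates 2 and 4 lie above all other libraries in every complex, and the tumors lie below 0 in complex II and above 0 in complex V.

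The comparison of MG-N with MG-WT asks how glands of neu mice without a malignant lesion differ from glands of wild type mice. Nearly all members were higher in MG-N, across all 5 complexes. With limma, 74 of 81 members tested were called higher (adjusted p under 0.05), where 30% of 19017 genes tested were called higher, and 1 was called lower, where 29.2% of all genes were. The median member log2 fold change was 1.49, a 2.82-fold difference, against 0.02 over all genes tested. Of complex I, 37 of 38 members were called higher, of complex II 4 of 4, of complex III 9 of 9, of complex IV 11 of 13 tested and of complex V 13 of 17. In 75 of 81 members the 2 groups did not overlap, as was the case for 61.3% of all genes tested.

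Core subunits of complex I were among those higher. Ndufs1, the largest iron-sulfur subunit, had 1694, 1325 and 1684 normalized counts in MG-WT and 5038, 4751, 4634 and 4439 in MG-N, with a log2 fold change of 1.60 ± 0.12 (SE, adjusted p = 2.11e-05). Ndufv1, which binds NADH and the flavin, had 1387, 1138 and 1559 against 3615, 3855, 3494 and 3718, with a log2 fold change of 1.44 ± 0.12 (SE, adjusted p = 4.21e-05). The highest log2 fold change in complex I was that of Ndufa13 (also known as GRIM-19), with 156, 151 and 158 normalized counts in MG-WT and 1412, 1958, 1864 and 1948 in MG-N, at 3.52 ± 0.14 (SE, adjusted p = 1.46e-06). Ndufa4l2, a paralog of Ndufa4 known to respond to hypoxia, had the lowest and did not pass the test, with 46.9, 45.4 and 39.8 against 40.8, 146, 76.1 and 56.6 and a log2 fold change of 0.69 ± 0.41 (SE, adjusted p = 0.18).

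All 4 subunits of succinate dehydrogenase were higher in MG-N. Sdha, the flavoprotein that oxidizes succinate, had 2958, 2779 and 3102 normalized counts in MG-WT and 12714, 11354, 11252 and 12371 in MG-N, and Sdhb, the iron-sulfur subunit, had 706, 668 and 869 and 3044, 3148, 3273 and 3119.5. Their log2 fold changes were 2.02 ± 0.10 (SE, adjusted p = 3.14e-06) and 2.08 ± 0.12 (SE, adjusted p = 5.04e-06). For the membrane anchors Sdhc and Sdhd they were 0.91 ± 0.11 (SE, adjusted p = 0.000214) and 1.49 ± 0.11 (SE, adjusted p = 1.67e-05). Complex II was the complex whose MG-WT glands lay furthest below MG-N, with medians of -1.74, -1.86 and -1.62 on the log2 scale in replicates 1 to 3.

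In complex III the core protein Uqcrc1, the Rieske protein Uqcrfs1 and cytochrome c1 (Cyc1) were higher in MG-N. The log2 fold changes of Uqcrc1 and Uqcrfs1 were 1.08 ± 0.11 (SE, adjusted p = 0.000101) and 1.13 ± 0.12 (SE, adjusted p = 0.00011), and Cyc1 had 1115, 791 and 1133 normalized counts in MG-WT against 1879, 2195, 2099 and 1866 in MG-N (adjusted p = 0.000694). The small subunit Uqcr11 had the highest value in this complex at 3.01 ± 0.14 (SE, adjusted p = 2.83e-06), with 273, 231 and 295 normalized counts against 1816, 2088, 2254 and 2487, and Uqcrq the lowest at 0.92 ± 0.21 (SE, adjusted p = 0.0052). In complex IV Cox4i1 rose by 1.97 ± 0.10 (SE, adjusted p = 3.84e-06), Cox5b by 1.68 ± 0.11 (SE, adjusted p = 1.1e-05), Cox5a by 0.97 ± 0.16 (SE, adjusted p = 0.00112) and Cox6c by 2.93 ± 0.12 (SE, adjusted p = 1.41e-06). These are subunits of the shell around the catalytic core that the mitochondrial genome encodes. Cox6b2, an isoform known from testis, had 42.2, 25.4 and 28.4 against 24.2, 44.8, 26.3 and 34.0 normalized counts and a log2 fold change of 0.01 ± 0.32 (SE, adjusted p = 0.987), so that no difference was detectable.

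Complex V had the widest range. Atp5j2 and Atp5k, small membrane subunits (f and e), had log2 fold changes of 3.69 ± 0.12 (SE, adjusted p = 4.58e-07) and 3.69 ± 0.14 (SE, adjusted p = 9.75e-07), and Atp5j2 had 188, 181 and 227 normalized counts in MG-WT against 2607, 2456, 2671 and 2555 in MG-N. Atp5a1 and Atp5b rose by 1.18 ± 0.14 (SE, adjusted p = 0.000224) and 1.42 ± 0.16 (SE, adjusted p = 0.000192). Atp5d, the delta subunit of the central stalk, was the 1 member called lower in MG-N, with 2332, 2086 and 2539 normalized counts in MG-WT and 1539.9, 1834, 1766 and 1807 in MG-N and a log2 fold change of -0.42 ± 0.11 (SE, adjusted p = 0.0132). That call was lost when MG-WT replicate 3 was left out, where 0 members and 4676 of 19017 genes were lower. A 2-fold minimum, scaling to total reads, 1 fit of all 5 groups and replicate number as a block also lost it. The c subunit of the rotor ring is encoded by 3 genes, and of these Atp5g3 was higher in MG-N by 0.66 ± 0.16 (SE, adjusted p = 0.00856), whereas Atp5g1 and Atp5g2 gave 0.29 ± 0.15 (SE, adjusted p = 0.127) and -0.28 ± 0.13 (SE, adjusted p = 0.0942). The remaining members that did not pass the test were Atp5s, also known as Dmac2l, at -0.25 ± 0.20 (SE, adjusted p = 0.327) and Cox7a2l, a factor of supercomplex assembly, at 0.10 ± 0.14 (SE, adjusted p = 0.584).

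Several measures moved together with this difference. Transcript length was one, since the other protein-coding genes with principal transcripts under 700 bases had a median log2 fold change of 0.54 (n = 320) and those of at least 2000 bases one of -0.13 (n = 10727). Within the same classes the members had 1.54 (n = 31) and 1.24 (n = 8), and 29 of 31 short and 7 of 8 long members were called higher, against 49.1% and 24.6% of the other genes. White adipocyte genes were higher in every MG-N gland and luminal genes lower, and the depth of the MG-WT libraries was more than that of any MG-N library, so genotype, tissue makeup and library cannot be told apart here.

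The comparison of MG-NP with MG-WT gave 75 of 82 members tested as higher, where 22.4% of 19065 genes were, and 0 as lower, where 24% of all genes were. At an unadjusted p under 0.05, 0 members were lower with limma, and edgeR and DESeq2 also called 0 lower. The median log2 fold change was 1.95 against 0.02 over all genes, and in 77 members the groups did not overlap, as in 54.4% of all genes. The extremes by complex were Ndufa5 at 4.14 and Ndufa4l2 at 0.66 in complex I, Sdhb at 2.86 and Sdhc at 1.31 in complex II, and Uqcr11 at 3.47 and Uqcrq at 1.52 in complex III. All 6 passed the test, with adjusted p = 0.00127, 0.0405, 0.00502, 0.0497, 0.00131 and 0.0469 by limma. In complex IV they were Cox6a2 at 8.12 ± 1.91 (SE, adjusted p = 0.0116) and Cox6b2 at -0.28 ± 0.39 (SE, adjusted p = 0.577), and in complex V Atp5j2 at 4.20 ± 0.44 (SE, adjusted p = 0.000525) and Atp5s at 0.07 ± 0.40 (SE, adjusted p = 0.893). Cox6a2 was under 10 normalized counts in every MG-WT gland and passed the filter only through MG-NP. Its call is therefore no support beyond the values themselves. With MG-NP replicates 2 and 4, the glands with the most muscle RNA, left out, 75 members were called higher, where 25.6% of all genes were. Of the 75 members, 73 were called in both fits, and the median was 1.22. Without MG-WT replicate 2, 47 members were called higher, where 3007 of 19065 genes were, against 4268 genes with all glands. Both comparisons share the MG-WT glands. With the skeletal muscle score as a covariate 0 of 82 members were called and 39 had a negative coefficient. Of all 19065 genes, 979 were higher and 1333 lower there. In this fit the score of every MG-NP gland (8.98 to 16.8) was above that of every MG-WT gland (3.67 to 3.90).

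**Figure D2:**
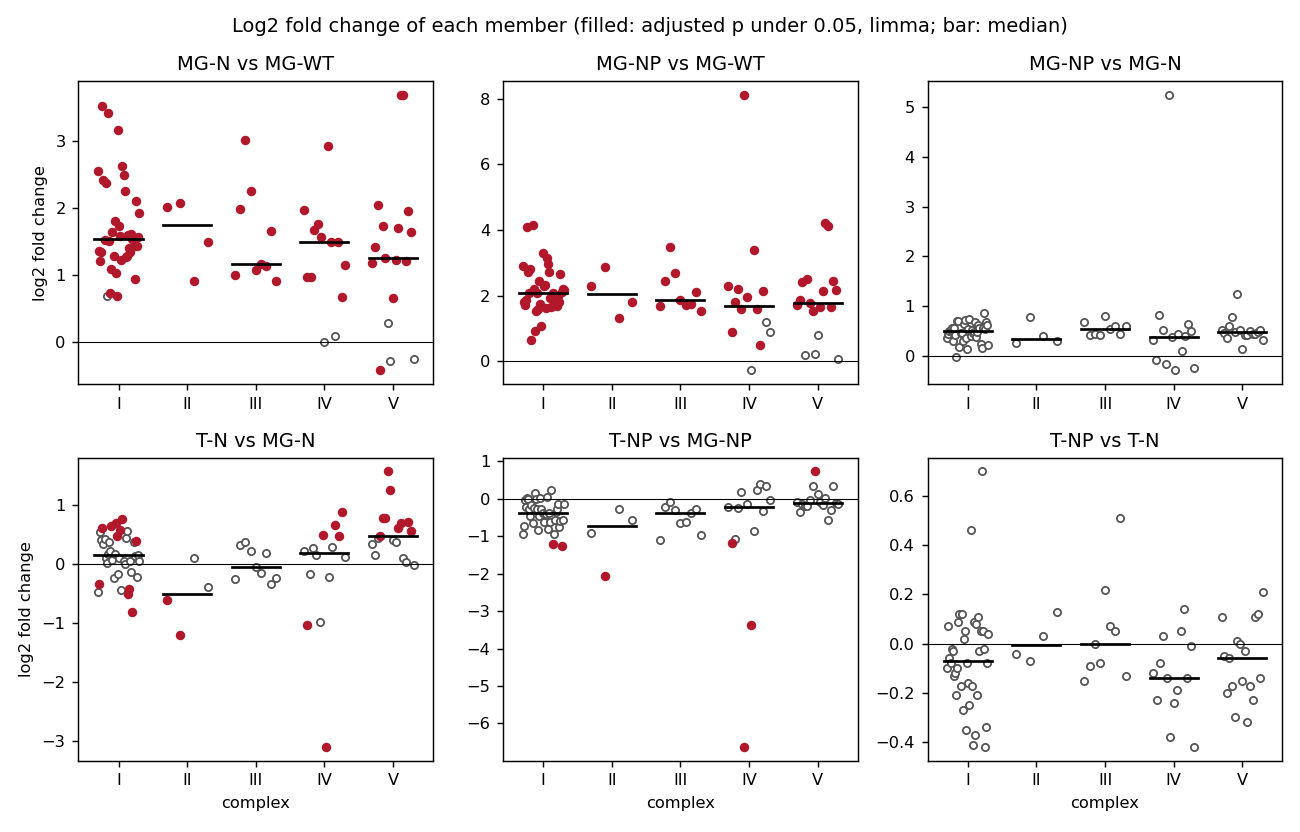
Log2 fold change of every tested member (vertical axis; the scale differs between panels) by complex (horizontal axis) in the 6 pairwise comparisons, filled where the adjusted p was under 0.05 with limma, with a bar at the median. Nearly all points lie above 0 in both comparisons with MG-WT, and filled points are few or lacking in the others except T-N vs MG-N.

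The comparison of MG-NP with MG-N asks what the mutant allele and Cre together change in the gland. No member was called in either direction among 82 tested, as for all 18563 genes, of which 0% were called higher and 0% lower with limma. At an unadjusted p under 0.05 there were 5 members, namely Atp5g1, Ndufs7, Cox7a2l, Cox6a2 and Atp5g2, and 1950 (10.5%) of all genes. edgeR called 0 members. DESeq2 called 2 higher, Cox6a2 and Atp5g1, where it called 473 of 18563 genes higher and 257 lower. The median log2 fold change was 0.47 against -0.02 over all genes, and it was 0.13 without MG-NP replicate 4, 0.75 without replicate 3 and -0.24 without both replicates 2 and 4.

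The 4 MG-NP glands differed more from each other than any other group did. The median member lay -0.16, 0.88, -0.31 and 1.55 from the MG-N mean on the log2 scale in replicates 1 to 4, and the MG-N glands themselves lay between -0.07 and 0.05. These distances depend on the scaling. The normalized counts of replicates 2 and 4 summed to 34279401 and 34721537, and those of the MG-N glands to 24158825 to 26619192. As shares of reads, the members took 0.866, 1.21, 0.788 and 1.92% in MG-NP replicates 1 to 4 and 0.832 to 0.942% in MG-N. In replicate 4, 79 of 82 members were above every MG-N gland, and 73 had there the highest value of all 19 libraries. In replicate 2, 76 were above and 3 below every MG-N gland. In replicate 1, 10 were above and 46 below, and in replicate 3, 2 were above and 62 below. Replicate 4 was highest and replicate 2 second highest of all libraries for 56 of 82 members. Sdha had 9274, 16288, 8626 and 32195 normalized counts in these glands, Ndufs1 4165, 9569, 3102 and 15423, Uqcrc1 5007, 11355, 4442 and 18918 and Atp5b 26502, 54275, 25331 and 91046, and in all 4 genes replicate 4 was highest and replicate 2 next.

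Replicates 2 and 4 were above replicates 1 and 3 both by the members and by the muscle genes, and the order by Ucp1 was another. The muscle genes took the most reads in replicate 2, where Ucp1 was at 2.85 normalized counts, whereas in replicate 4, with less muscle RNA, Ucp1 reached 56926. Ppargc1a, a coactivator of mitochondrial biogenesis, had 326, 1884, 213 and 1894 normalized counts in the 4 glands and 269, 270.1, 260.1 and 233 in MG-N. Replicate 1 had 2.28% of reads on muscle genes, and its median member lay at -0.16. The part of muscle and brown fat RNA in the level of the members was not tested beyond the fits with these scores as covariates.

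**Figure D3:**
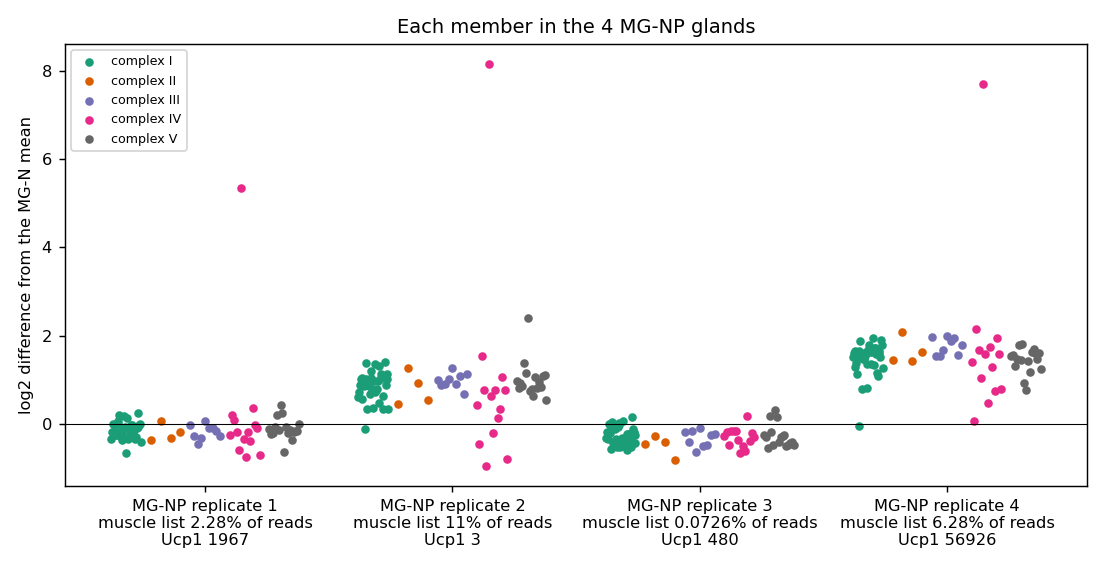
Log2 difference of each member from its MG-N mean (vertical axis) in the 4 MG-NP glands, coloured by complex, with the share of reads on the 20 skeletal muscle genes and the normalized count of Ucp1 under each gland. Members lie near or below 0 in replicates 1 and 3 and mostly above 0 in replicates 2 and 4, and Cox6a2 stands highest in replicates 1, 2 and 4.

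Complex IV has paired isoforms, and these separated the MG-NP glands. Cox6a1 is the widely expressed form of subunit VIa and Cox6a2 (ENSMUSG00000030785, chr7:128205435-128206387, minus strand, GRCm38) the form of heart and skeletal muscle. Cox6a2 had 635, 4478, 13 and 3299 normalized counts in MG-NP. The MG-N glands had 20.4, 32.2, 8.45 and 8.24 and the MG-WT glands 1.28, 3.42 and 0. Replicates 1, 2 and 4 of MG-NP were above and replicate 3 was within the range of MG-N, so the groups overlapped, and the log2 fold change of MG-NP over MG-N was 5.25 ± 1.67 (SE, adjusted p = 0.344). Cox6a1 had 1902, 1490.2, 2574 and 5957 in MG-NP and 2529.6, 2917, 2949 and 3181 in MG-N, that is, below every MG-N gland in replicates 1 and 2 and above every one in replicate 4. As shares of the sum of both forms per kilobase of transcript, Cox6a2 made up 21.9, 71.6, 0.422 and 31.7% in MG-NP and at most 0.918% in an MG-N gland.

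For subunits VIIa and VIII the muscle and brown fat forms, Cox7a1 and Cox8b, are not members, and their values stand here beside those of the members Cox7a2 and Cox8a. Cox7a1 had 474, 1857, 79.1 and 3671 normalized counts in MG-NP and 39.5, 103, 70.4 and 83.4 in MG-N, and Cox8b had 1110.2, 2679, 545 and 8396 and 432, 855, 355 and 834. Cox7a2 had 2032, 2918, 1752 and 6533 in MG-NP and 2917, 2282, 2763 and 2819.8 in MG-N, and Cox8a had 2268, 2127, 2964 and 6382 and 3426, 3598, 3940.5 and 3761. Cox8a was thus below every MG-N gland in replicates 1 to 3, and replicate 2 is a library where 76 of 82 members were above them. Cox8a made up 57.2, 34.2, 78.1 and 33.2% of the sum of both forms per kilobase in MG-NP, between 73.4 and 87.9% in MG-N, and between 99.9 and 100% in MG-WT. In the tumors Cox8a made up 89.4, 100, 90.1 and 99.7% in T-N and 98.7, 97.1, 95.9 and 98.4% in T-NP.

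**Figure D4:**
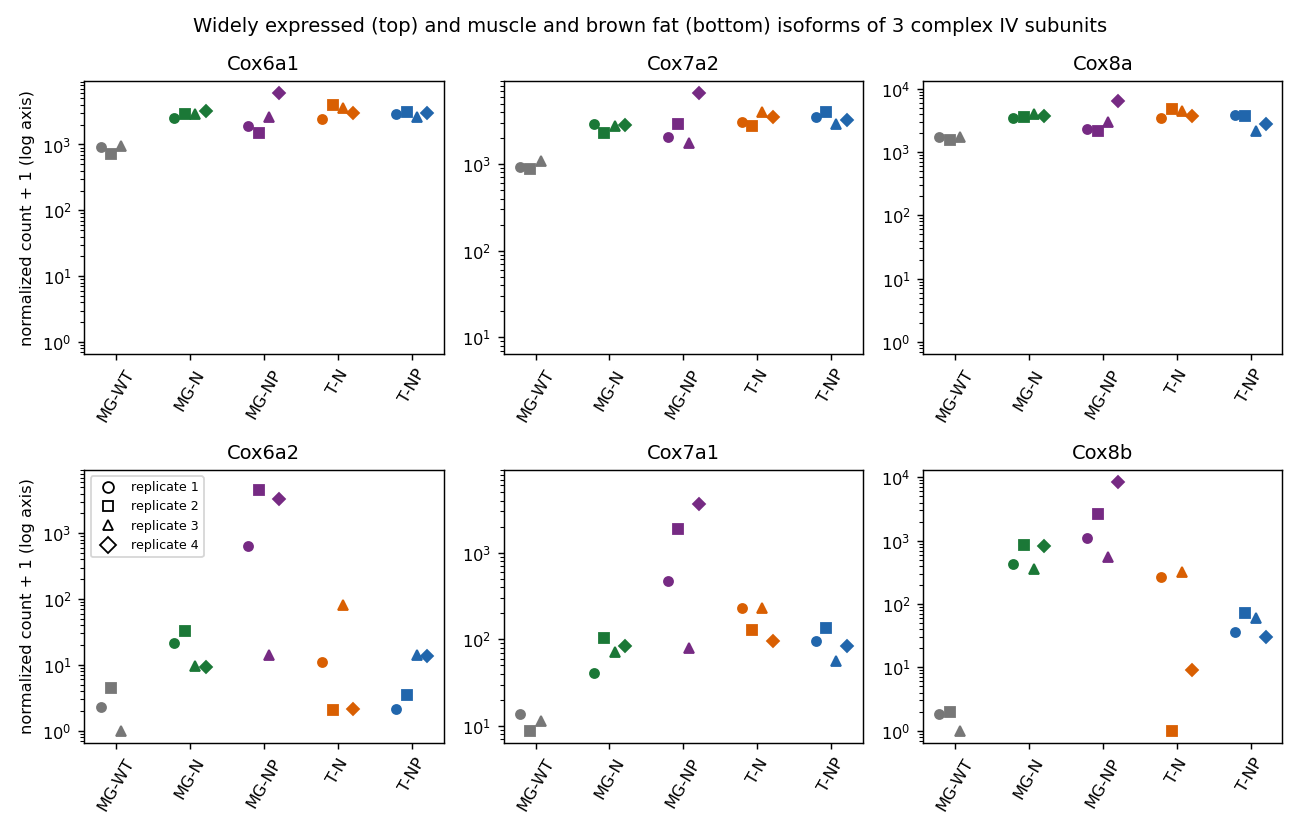
Normalized count + 1 (log axis) of 3 widely expressed complex IV isoforms (top) and their muscle or brown fat counterparts (bottom) in each library, by group, with the marker shape giving the replicate number. Cox6a2, Cox7a1 and Cox8b are highest in MG-NP replicates 2 and 4, and Cox6a1 and Cox8a are lowest of the MG-NP glands in replicate 2.

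Among the other isoforms, Cox4i2 and Ndufa4l2 were low in all glands, whereas Cox6b1, Cox7b and Ndufa4 were not. Cox4i2, an alternative to Cox4i1 that is known for high levels in lung, had 22.9, 43.7, 33.8 and 22.7 normalized counts in MG-N and 13.7, 15.6 and 14.5 in MG-WT, and its log2 fold change was 0.98 ± 0.32 (SE, adjusted p = 0.0273). Cox6b1, the widely expressed partner of Cox6b2, had 2729.7, 5353, 2697 and 10388 normalized counts in MG-NP against 3405, 3248, 3572 and 3639.6 in MG-N, and Cox7b had 2052, 4379, 1604 and 8135 against 2126, 1922, 2263 and 2112. Ndufa4 had 2418, 5237, 1939 and 9098 against 3247, 2587, 2897 and 2884, and its paralog Ndufa4l2 had 71.5, 65.7, 73.7 and 68.4 against 40.8, 146, 76.1 and 56.6.

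The comparison of T-N with MG-N asks how neu tumors differ from glands without a lesion where no mutant p53 is made. Of 82 members tested, 20 were called higher in tumors, where 23.5% of 17950 genes were, and 8 were called lower, where 27.8% were, so the share of members called higher (20 of 82) was near the background and that called lower was below it. The median log2 fold change was 0.17, against -0.05 over all genes. In complex V 9 of 17 members and in complex I 7 of 38 were higher, and none in complexes II or III were. Both complex II members that were called, Sdhb and Sdha, were lower, as were 4 of complex I, 2 of complex IV and none of complexes III and V. At an unadjusted p under 0.05, 10 of 17 complex V members were higher and 0 lower, where 58.0% of all genes had such a p in either direction.

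The highest values were those of the genes for subunit c. Atp5g1 (ENSMUSG00000006057, chr11:96068852-96075670, minus strand) had 2424, 3728, 2514 and 2926 normalized counts in T-N and 935, 964, 1090.3 and 882 in MG-N, a log2 fold change of 1.56 ± 0.16 (SE, adjusted p = 0.000175). Atp5g2 (ENSMUSG00000062683, chr15:102662864-102672352, minus strand) had 2597, 3118, 2686 and 2678 and 1122, 1038, 1402 and 1146, at 1.24 ± 0.13 (SE, adjusted p = 0.000207). In neither did the groups overlap. Atp5g3 (ENSMUSG00000018770, chr2:73908447-73911326, minus strand) had 2819, 5495, 3551 and 5434 and 3787, 2709, 3283 and 2900.1, so the groups overlapped, and its log2 fold change of 0.40 ± 0.24 (SE, adjusted p = 0.18) did not pass the test. These 3 genes encode the same mature protein with different import sequences. The other complex V members called higher were Atp5f1, Atp5e, Atp5mpl, Atp5j2, Atp5j, Atp5o and Atp5d, with log2 fold changes from 0.47 to 0.77. They encode subunits of the stator and stalks and small subunits of the membrane part. Atp5a1 and Atp5b, of the catalytic head, gave 0.34 ± 0.15 (SE, adjusted p = 0.0907) and 0.15 ± 0.20 (SE, adjusted p = 0.572).

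Of the 4 complex II members 2 were lower in tumors, Sdhb (ENSMUSG00000009863, chr4:140961203-140979193, plus strand) most. Sdhb had 1698, 1236, 1553 and 1069 normalized counts in T-N against 3044, 3148, 3273 and 3119.5 in MG-N, a fold change of 0.435 and a log2 fold change of -1.20 ± 0.16 (SE, adjusted p = 0.000509), with every tumor below every gland. Sdha had 6789.6, 7972, 7942 and 8648 against 12714, 11354, 11252 and 12371, at -0.61 ± 0.13 (SE, adjusted p = 0.00445). Sdhd gave -0.40 ± 0.16 (SE, adjusted p = 0.0648) and did not pass the test, though no tumor reached the lowest gland. Sdhc, with 2409.8, 3850, 2948 and 2823 against 2852, 2850.3, 2783 and 2609.7, gave 0.10 ± 0.15 (SE, adjusted p = 0.617). The subunits of this complex thus moved unequally, and MG-WT glands, with 706, 668 and 869 normalized counts of Sdhb, were lower still than the tumors.

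**Figure D5:**
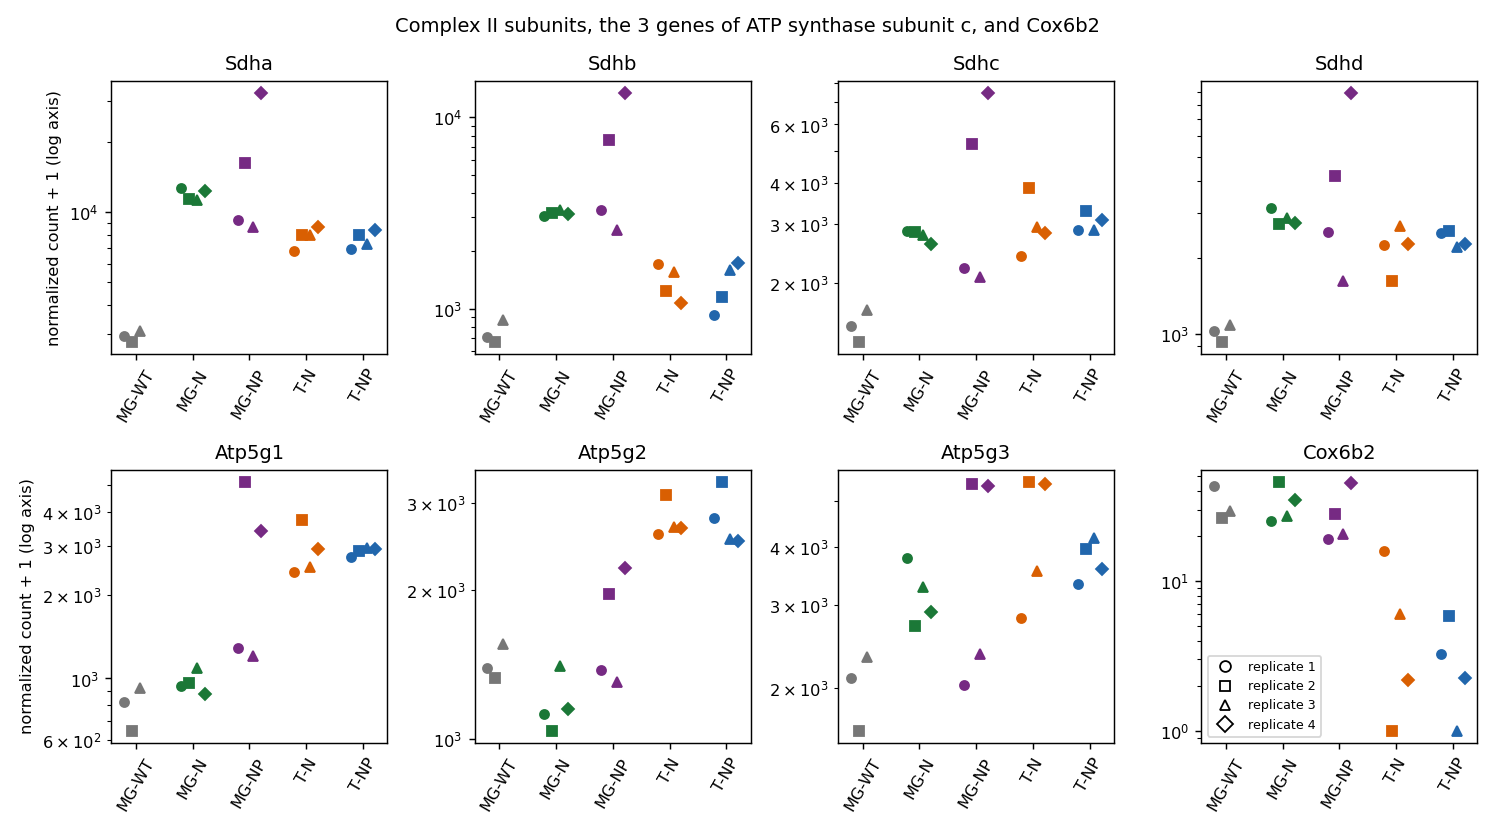
Normalized count + 1 (log axis; scales differ between panels) of the complex II subunits, the 3 genes of ATP synthase subunit c and Cox6b2 in each library, by group, with the marker shape giving the replicate number. Sdhb is lower in all 8 tumors than in all MG-N and MG-NP glands, Atp5g2 is higher in all 8 tumors than in all glands, and Cox6b2 is lower in all 8 tumors than in any gland.

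Promoter sequence was compared over the members. RefSeq promoter windows on GRCm38.p6 (250 bases before to 50 after the annotated start) were matched for 67 of the 84 members, with 72 windows. Exact letters known as core sites of 4 factors of respiratory genes were searched on both strands. The NRF1 letters GCGCATGCG, which overlap their own reverse complement, were in 8 of the 72 windows (11.1%), each of another member, against 1.75% of all 32851 windows. The ETS letters CCGGAAGT were in 5 windows (6.9%, against 3.89%), the ERR letters TCAAGGTCA in 2 (2.8%, against 0.42%) and the YY1 letters AAGATGGCG in 7 (9.7%, against 1.40%). No window was counted as a binding site, and 21 members had at least 1 match. Atp5g2, Atp5k, Atp5l, Cox6a1, Ndufa11, Ndufa8, Uqcr11 and Uqcrc1 held the NRF1 letters, and Atp5g3 and Sdhd held the ERR letters.

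The promoters of the 3 subunit c genes are shown because they encode 1 mature protein and only Atp5g1 and Atp5g2 were called higher in T-N, and those of Sdhb and Cox6a1 because Sdhb fell in the tumors and Cox6a1 fell behind the other members in MG-NP replicate 2. Each is the 250 bases before the RefSeq start, 5′ to 3′ on the strand of the gene, with the searched letters in capitals. The RefSeq start can differ from the gene bounds given above, which are those of GENCODE vM21. The window of Atp5g2 lies wholly within its gene bounds, and those of Sdhb and Atp5g1 lie partly within theirs. The windows are chr11:96075632-96075881, minus strand for Atp5g1, chr15:102671048-102671297, minus strand for Atp5g2, chr2:73911327-73911576, minus strand for Atp5g3, chr4:140961021-140961270, plus strand for Sdhb and chr5:115348959-115349208, minus strand for Cox6a1. Capitals mark the NRF1 letters on both strands in Atp5g2 and Cox6a1 and the ERR letters on the opposite strand in Atp5g3, and the windows of Atp5g1 and Sdhb hold none of the 4.
Atp5g1: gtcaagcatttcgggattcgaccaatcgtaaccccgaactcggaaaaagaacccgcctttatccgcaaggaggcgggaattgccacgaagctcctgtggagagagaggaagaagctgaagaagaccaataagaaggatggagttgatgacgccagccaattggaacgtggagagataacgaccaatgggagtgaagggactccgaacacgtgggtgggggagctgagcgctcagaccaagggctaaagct
Atp5g2: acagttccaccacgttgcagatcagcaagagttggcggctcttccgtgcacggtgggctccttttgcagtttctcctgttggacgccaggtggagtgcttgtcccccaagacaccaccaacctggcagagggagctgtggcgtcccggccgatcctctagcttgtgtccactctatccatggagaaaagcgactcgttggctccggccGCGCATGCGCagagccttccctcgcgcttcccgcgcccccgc
Atp5g3: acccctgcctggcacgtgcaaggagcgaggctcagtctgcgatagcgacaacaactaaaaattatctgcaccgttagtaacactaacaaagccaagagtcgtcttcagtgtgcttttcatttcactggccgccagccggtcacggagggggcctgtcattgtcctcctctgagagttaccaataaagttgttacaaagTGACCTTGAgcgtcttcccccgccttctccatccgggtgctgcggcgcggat
Sdhb: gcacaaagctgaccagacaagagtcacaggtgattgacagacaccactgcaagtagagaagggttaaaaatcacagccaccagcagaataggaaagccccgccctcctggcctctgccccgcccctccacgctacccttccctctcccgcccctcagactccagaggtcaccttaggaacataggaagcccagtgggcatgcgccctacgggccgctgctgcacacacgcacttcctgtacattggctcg
Cox6a1: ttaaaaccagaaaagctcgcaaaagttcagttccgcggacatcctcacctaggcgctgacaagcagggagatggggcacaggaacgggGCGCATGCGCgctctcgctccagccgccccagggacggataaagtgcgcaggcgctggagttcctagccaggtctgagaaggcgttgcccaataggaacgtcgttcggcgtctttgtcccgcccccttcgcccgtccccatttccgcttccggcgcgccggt

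In complex I the tumors were lower in the core subunit Ndufs1, at -0.52 ± 0.14 (SE, adjusted p = 0.0127) on the log2 scale, and in the accessory subunits Ndufs5 and Ndufa10, at -0.81 ± 0.24 (SE, adjusted p = 0.0195) and -0.35 ± 0.11 (SE, adjusted p = 0.0271). Ndufs1 had 2664, 3728, 3173 and 3678 normalized counts in T-N against 5038, 4751, 4634 and 4439 in MG-N. The 7 called higher were Ndufb7, Ndufb11, Ndufa8, Ndufa13, Ndufb5, Ndufb2 and Ndufs8, from 0.38 to 0.75, and 6 of them are accessory subunits. Ndufv1 gave -0.23 ± 0.12 (SE, adjusted p = 0.143).

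In complex III the extremes were Uqcr11 at 0.37 ± 0.15 (SE, adjusted p = 0.0609) and Uqcrh at -0.34 ± 0.23 (SE, adjusted p = 0.235), and neither passed. Uqcrc1, Uqcrfs1 and Cyc1 gave -0.06, 0.18 and -0.26, with adjusted p = 0.8, 0.287 and 0.233 by limma. In complex IV Cox7c, Cox7a2l, Cox6b1 and Cox7b were higher, Cox7c most, with 2924, 3933, 3866 and 2998 normalized counts against 1665, 1701, 1978 and 2138 and a log2 fold change of 0.87 ± 0.15 (SE, adjusted p = 0.00186). Cox6b2 and Cox4i2 were lower. Cox6b2 had 14.8, 0, 5.05 and 1.17 against 24.2, 44.8, 26.3 and 34.0, at -3.10 ± 0.78 (SE, adjusted p = 0.0105), and Cox4i2 gave -1.03 ± 0.35 (SE, adjusted p = 0.0366). Cox6b2 passed the filter only through the MG-N glands, as T-N replicate 1 alone of the tumors reached 10 normalized counts. Its call is therefore no support beyond these low values. Cox4i1, Cox5a and Cox5b gave 0.22, -0.17 and 0.26 and did not pass, with adjusted p = 0.205, 0.398 and 0.237 by limma. All 9 white adipocyte genes were lower in T-N than in MG-N. Of the 9 luminal genes 6 were higher and 3 lower, and their share of reads was higher in all 4 tumors, whereas their mean log2 level was 11.26 to 12.07 in T-N and 10.44 to 11.43 in MG-N and overlapped. A tumor cannot be told apart from a gland with another tissue makeup in these values. The scaling mattered for the split, for the members and for all genes. With TMM scaling 29 members were higher and 6 lower, where 4779 and 4612 of 17950 genes were. Scaled to the total reads of each library, 14 members were higher and 9 lower, where 3517 and 5469 genes were. The latter scaling moved the median of all genes to -0.15.

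The same comparison in mutant mice, T-NP with MG-NP, gave 1 of 82 members higher, where 26.2% of 17880 genes were, and 6 lower, where 29.3% were. Atp5g2 was the member called higher, with 2794, 3309.6, 2544 and 2509.6 normalized counts in T-NP and 1376, 1964, 1302 and 2222 in MG-NP, at 0.73 ± 0.20 (SE, adjusted p = 0.0128). The 6 lower were Cox6a2 at -6.63 ± 1.70 (SE, adjusted p = 0.01), Cox6b2 at -3.37 ± 0.57 (SE, adjusted p = 0.00126), Sdhb at -2.05 ± 0.49 (SE, adjusted p = 0.00757), Ndufv1 at -1.26 ± 0.43 (SE, adjusted p = 0.0336), Ndufs1 at -1.22 ± 0.45 (SE, adjusted p = 0.0471) and Cox4i2 at -1.17 ± 0.42 (SE, adjusted p = 0.0417). For Ndufs1 the groups overlapped. With T-NP replicates 1 and 2, which share a number in their names, averaged into 1 sample, 1 member was higher and 4 were lower. Of all genes 23.3% were higher and 26.4% lower in that fit, and Ndufv1 and Ndufs1 were no longer called. Sdhb had 919, 1154, 1583 and 1729 in T-NP against 3285, 7545, 2578 and 13273 in MG-NP, without overlap. Cox6a2 had 1.12, 2.44, 13.0 and 12.5, so that the T-NP tumors were at or below the level of MG-NP replicate 3 and far below the other 3 glands. Cox6a2 and Cox6b2 passed the filter only through the MG-NP glands, so their calls are no support beyond low values in T-NP.

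Here the direction for the members as a whole rested on MG-NP replicate 4. With all 4 glands the median log2 fold change was -0.27, against -0.07 over all genes, and without replicate 4 it was 0.07, with 48 of 82 positive. Without replicates 1, 2 or 3 it was -0.51, -0.18 and -0.53. Without both replicates 2 and 4 it was 0.39, and 40 members were called higher and 2 lower, where 26.2% and 27.2% of all genes were. With MG-NP replicate 3 alone, the gland with the least muscle RNA, 27 were higher and 0 lower, where 17.6% and 17.0% of all genes were, and the lone sample was assumed to vary like T-NP. Without MG-NP replicate 4, 5 were higher, where 4496 of 17880 genes were. Leaving out MG-NP replicates 1 or 3 raised the number lower to 11 and 15, where 4733 and 5089 genes were lower. Without MG-NP replicate 2, or T-NP replicates 1, 3 or 4, 3 were lower, where 4777, 4782, 4842 and 4721 genes were. A fit with the skeletal muscle score as a covariate gave 2 higher and 1 lower, where 2100 and 2751 of 17880 genes were. In that fit the score of every MG-NP gland (8.98 to 16.83) was above that of every T-NP tumor (3.66 to 8.33). Group and score therefore cannot be told apart in it. Atp5g2 did not overlap between the tumors and the 4 glands, and its log2 fold change stayed positive in every alternative run for it, although the call was lost under a 2-fold minimum and with the muscle and brown fat scores together.

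The comparison of T-NP with T-N asks what stromal mutant p53 changes in the tumor. With limma 0 of 81 members were called in either direction, where 0.0361% of 16638 genes were called higher and 0.00601% lower. edgeR and DESeq2 each called 0, and 3 members, Ndufs5, Uqcrh and Ndufb6, had an unadjusted p under 0.05, as did 7.27% of all genes. The largest difference was that of Ndufs5, with 912, 912, 753 and 777 normalized counts in T-NP and 531, 389, 727 and 463 in T-N, at 0.70 ± 0.20 (SE, adjusted p = 0.615), and the groups did not overlap. The lowest was that of Cox8a at -0.42 ± 0.21 (SE, adjusted p = 0.705). In complexes II, III and V the extremes were Sdhd at 0.13 and Sdhb at -0.07, Uqcrh at 0.51 and Cyc1 at -0.15, and Atp5s at 0.21 and Atp5j at -0.32, with adjusted p from 0.683 to 0.962 by limma.

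Whether the tumor-gland difference itself differed between the genotypes was tested with an interaction term in the 16 samples without MG-WT. No member was called, as for all 19367 genes, of which 0% were higher and 0% lower. There were 7 members of 82 with an unadjusted p under 0.05, near the 7.93% of all genes. edgeR called 0, and DESeq2 called 1, Cox6a2, as lower, where it called 285 of 19367 genes lower. The median member interaction was -0.55 against 0.00 over all genes, with 78 of 82 negative. It was -0.19 without MG-NP replicate 4, with 66 negative, and 0.15 without MG-NP replicates 2 and 4. For Sdhb the interaction was -0.84 ± 0.55 (SE, adjusted p = 0.759) and for Atp5g1 -1.23 ± 0.50 (SE, adjusted p = 0.557).

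Other genes of oxidative metabolism were taken from lists chosen beside the members. Their counts are to be read against the shares of all genes, which for MG-N against MG-WT were 30% in the higher and 29.2% in the lower direction, for T-N against MG-N 23.5% and 27.8%, and for T-NP against MG-NP 26.2% and 29.3%. Of 45 assembly factors tested, which build the complexes without staying in them, 30 were higher and 1 lower in MG-N than in MG-WT (median log2 fold change 0.82), and 4 were higher and 9 lower in T-N than in MG-N, both below the shares of all genes (median 0.06). Sco2, a copper chaperone of complex IV, was highest at 0.92 (adjusted p = 0.0125) and Foxred1, an assembly factor of complex I, lowest at -1.17 (adjusted p = 0.00169) in the tumors. All 13 genes of the tricarboxylic acid cycle were higher in MG-N than in MG-WT (median 1.34), and 7 were lower and none higher in T-N than in MG-N (median -0.48), with citrate synthase (Cs) lowest at -1.19 (adjusted p = 0.000699). In T-NP against MG-NP 4 of the 13 were lower, near the share of all genes (median -0.89). Of 14 genes for electron carriers and inputs, 11 were higher in MG-N than in MG-WT (median 1.46), and 5 were lower and 1, Coq4 of ubiquinone synthesis, was higher in T-N than in MG-N (median -0.34).

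Of 14 genes of mitochondrial import and the outer membrane, 8 were higher and none lower in T-N than in MG-N, with a median of 0.49 and Vdac1, the main outer membrane channel, highest at 0.83 (adjusted p = 0.0281). Of 16 regulators of mitochondrial biogenesis, 6 were higher and 6 lower in MG-N than in MG-WT, and 3 were higher and 4 lower in T-N than in MG-N, the latter both near the shares of all genes. The extremes in the tumors were Esrrg at 2.63 (adjusted p = 0.00232) and Pparg, the fat cell regulator, at -5.56 (adjusted p = 9.36e-05). Of the subunits that the mitochondrial genome encodes, 7 of 8 tested were lower in T-N than in MG-N and none was higher, with a median of -1.43. Against MG-WT, 6 of 11 were higher in MG-N and 3 lower, the lowest being mt-Nd3 at -6.08 with means of 871 normalized counts in MG-WT and 12.1 in MG-N. In MG-NP against MG-N, T-NP against T-N and the interaction no gene of these lists was called. These counts are by limma at adjusted p under 0.05.

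Exons of 30 of the 84 members overlap those of another annotated gene, in most cases on the opposite strand, and whether counting used strand was not given in the sources used here. Among the members described above these include Ndufs1 with Eef1b2, Cox6c with Vps13b, Ndufa4l2 with Shmt2, Atp5d with Cbarp and Cox6a2 with Itgad. Reads of the 2 genes in each pair could not be told apart without strand. The 11 pseudogenes whose symbols match the rule reached at most 42.8 normalized counts, and reads that fit a member and such a copy may have been split between them.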

How the data were processed

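The authors aligned reads to GRCm38 with TopHat2 (2.1.1) and Bowtie2 and deposited normalized counts, a signal in which each library's read counts had been scaled by its DESeq2 size factor. The counting tool, annotation and strand setting were not given in the sources used here. The labels name a stranded total RNA kit and the study's methods an mRNA kit. Whole reads were recovered from the deposited steps (100% of values whole within 0.05 reads). For T-N replicate 3 the size factor was too near 1 for its step to be told from 1 read by low values alone. Of 46078 identifiers, 45143 (97.97%) matched GENCODE vM21. 

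The main test was limma (3.58.1, lmFit and eBayes with trend) in R 4.3.3 on log2(normalized count + 1), which understates the fold change of low genes. Genes needed at least 10 normalized counts in as many samples as the smaller group holds, with Benjamini-Hochberg adjustment over all genes tested and calls at an adjusted p under 0.05. edgeR (4.0.16) and DESeq2 (1.42.0) were run on recovered reads as alternatives. The script was tested on simulated data. Full values were given for subunits of the core and the isoforms on a list, and for the member with the highest and the lowest log2 fold change of each complex in each comparison. The members and lists were chosen with earlier results of these data known. Values of 1 member are not reported here.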

Additional observations from a re-analysis of the deposited data

Results flagged for a closer look

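In groups of 4, the highest or the lowest library was set against the gap to its neighbour (Dixon's ratio, at its 95% critical value). Of 140 groups looked at 4 were found, which is fewer than the about 1 in 20 that chance flags. Atp5a1 was flagged in T-NP replicate 2 at 33888 normalized counts. The mean log2 normalized count over complex II was 11.61 in T-N replicate 3. Cox7b2 at 2.27 and Cox8c at 1.14 normalized counts were the only T-N values above 0 for these genes, both in replicate 1, and are at the level of 1 or 2 reads.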

How the results depend on the processing

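Of the counts of members called, 279 values under an alternative stayed within 1.5 times the reported count and 45 did not. The 279 include counts of 0 that stayed at 0, as in most alternatives of MG-NP against MG-N, T-NP against T-N and the interaction. For single members 1377 values kept direction and side of the threshold, 219 kept only the direction and 10 reversed. Of 83 named calls 36 held under every alternative run for them. Fits without MG-NP replicates 2 and 4, with the brown adipocyte score, and with both scores were chosen after seeing the data. The causes of these changes were not tested.

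In MG-N against MG-WT, 0 members were lower under a 2-fold minimum, with scaling to total reads, with all 5 groups in 1 fit and with the replicate block, and 0 to 2 were lower when 1 library was left out (0 without MG-WT replicate 3, 2 without MG-N replicate 3). Of 19017 genes, 3401, 4897, 4456 and 4818 were lower in the first fits named, and 4676 and 5264 without these single libraries. In MG-NP against MG-WT, 0 were higher with the muscle score, 25 with the brown adipocyte score and 0 with both, and 47 to 74 when 1 library was left out. Of 19065 genes, 979, 2025 and 588 were higher with these scores, and 3007 and 4424 without MG-WT replicate 2 and MG-NP replicate 3. In MG-NP against MG-N, DESeq2 gave 2 higher, and leaving out 1 library gave 0 to 1 (1 without MG-NP replicate 3). Of 18563 genes, 473 and 203 were higher in these fits. In T-N against MG-N, 2 were higher under a 2-fold minimum and 8 with all 5 groups, and 16 to 27 when 1 library was left out. Of 17950 genes, 2289 and 4639 were higher in the first fits, and 3346 and 4232 without MG-N replicate 4 and T-N replicate 1. There 3 were lower under a 2-fold minimum, 5 without a filter, 4 with all 5 groups and 4 with the replicate block, and 5 to 10 when 1 library was left out (5 without MG-N replicate 2, 3 or 4). Over all genes 4009, 6159 (of 29571 without a filter), 5391 and 4299 were lower in these fits. Without MG-N replicates 2, 3 or 4 the numbers were 4197, 4339 and 4156.

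In T-NP against MG-NP, 0 were higher under a 2-fold minimum, 2 with the muscle score, 2 with the brown adipocyte score, 2 with both, 27 with MG-NP replicate 3 alone and 40 without MG-NP replicates 2 and 4, and 1 to 5 when 1 library was left out (2 without T-NP replicate 3, 5 without MG-NP replicate 4). There 11 were lower with scaling to total reads, 13 with edgeR, 16 with DESeq2, 17 with all 5 groups, 1 with the muscle score, 1 with the brown adipocyte score, 0 with both, 0 with MG-NP replicate 3 alone and 2 without MG-NP replicates 2 and 4, and 3 to 15 when 1 library was left out. Of all 17880 genes of T-NP against MG-NP, 2625 were higher under a 2-fold minimum and 2100 with the muscle score. The brown adipocyte score gave 3331 higher and both scores 1527. Lower were 4516 with scaling to total reads, 5377 with edgeR, 5735 with DESeq2 and 5679 with all 5 groups. The muscle score gave 2751 lower, the brown adipocyte score 3754 and both 2028. In the interaction DESeq2 gave 1 lower, where 285 of 19367 genes were.

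With the muscle score, and with both scores, the log2 fold changes that reversed were in MG-NP against MG-WT Cox6a2 (-2.91 and -3.01), Uqcrq (-0.68 and -0.88) and Sdhc (-0.79 and -0.95), and in T-NP against MG-NP Ndufs1 (0.10 and 0.35) and Cox6a2 (0.27 and 0.37). In both comparisons the muscle score of every MG-NP gland was above that of every sample of the other group, so these fits cannot separate score from group. Scaling to total reads moved the median of all genes from 0.02 to 0.12 in MG-N against MG-WT, from -0.02 to -0.18 in MG-NP against MG-N and from 0.00 to 0.16 in the interaction.

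Replicate numbers are shared by the groups, and same-numbered samples deviated together with correlations from -0.257 to 0.285, so the numbers were not taken as pairs. With the number as a replicate block the higher and lower calls were 74 and 0 in MG-N against MG-WT, 60 and 0 in MG-NP against MG-WT, 15 and 4 in T-N against MG-N, 1 and 6 in T-NP against MG-NP, and 0 and 0 in the other comparisons. Over all genes they were, in the same order, 4972 and 4818, 2979 and 3525, 3444 and 4299, 4210 and 4802, and 0 and 0. Members under 10 normalized counts could not be judged at this depth.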
